A study of Mus musculus with 2 samples.

Results

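CaMKII, calcineurin and NFAT are the calcium effectors placed downstream of Wnt5A in the non-canonical Wnt5A/Ca2+ pathway, which the study considered in the self-renewal of retinal progenitors. The 10 mouse genes described here were taken by name: the CaMKII genes Camk2a, Camk2b, Camk2d and Camk2g, the calcineurin catalytic subunit genes Ppp3ca and Ppp3cb, and the NFAT genes Nfatc1, Nfatc2, Nfatc3 and Nfatc4. They are 10 of the 31253 genes that could be named in the table, and all 10 were found in it, on 87 RefSeq transcript rows, of which 46 were curated and 41 predicted.

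Total RNA of C57BL/6 mice was sequenced as 1 library of mouse neural retinal progenitor cells (mNRPCs), taken from culture at passage 24, and 1 library of retina tissue. The mNRPCs were grown from adult neural retina in chemically defined medium with the growth factor bFGF and CHIR99021, which inhibits glycogen synthase kinase 3, and the library stands for a single culture. Neither group was replicated, the age and number of the animals behind the retina library were not given in the labels, and no p-value was calculated. Retina is a mixed tissue, so fewer cells of a type and less RNA per cell cannot be told apart in its values.

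Levels are FPKM, in which fragments are scaled to the length of the transcript and to the mapped total of the library, summed over the rows of a gene. The log2 ratio is that of mNRPC FPKM + 1 to retina FPKM + 1, and understates differences of low genes. Errors are standard errors (SE) or 95% intervals from estimated fragment numbers, and cover counting error only. Estimated depth was 6.53e+06 fragments in mNRPCs and 5.01e+06 fragments in retina. The progenitor list was higher in mNRPCs for 4 of its 6 genes, among them Sox2 at 231 against 18.5 FPKM and Nes at 9.42 against 0.841 FPKM, while Pax6 and Six3 differed by less than 2-fold. All 6 rod genes were lower in mNRPCs, with a summed level of 6.63 against 13824 FPKM.

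In the pathway, Wnt5A acting on its receptors releases calcium from the endoplasmic reticulum through phospholipase C and inositol trisphosphate. Calcium-bound calmodulin then switches on CaMKII, a kinase of many subunits whose kinase part is joined to its assembly hub by a linker of variable exons. Calmodulin also switches on calcineurin, a phosphatase made of a catalytic A subunit and a calcium-binding B subunit, which removes phosphates from NFAT proteins and lets them enter the nucleus. Camk2a and Camk2b are best known from neurons, whereas Camk2d and Camk2g are made in most tissues.

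Variable exons of these genes are shown first, because the transcript rows that carry them took different shares of their gene in the libraries. The 30-nt exon of Ppp3ca lies at chr3:136932011-136932040 on the plus strand, exon 13 of 14 in its transcript, and the 30-nt exon of Ppp3cb at chr14:20503247-20503276 on the minus strand, also exon 13 of 14. Both are coding exons, each adding 10 codons between the calmodulin-binding and autoinhibitory parts of the subunit. The Camk2g linker exons are both coding, exons 14 and 15 of the 21 in their transcript, of 33 nt at chr14:20747819-20747851 and of 69 nt at chr14:20745792-20745860, both on the minus strand. The 33-nt exon is the counterpart of the exon that gives other CaMKII genes a nuclear localization signal. For Camk2d, coding linker exons of 60 nt at chr3:126805857-126805916 and of 42 nt at chr3:126808208-126808249, both on the plus strand, are shown. Sequences are from GRCm38 with the GENCODE M21 annotation and run 5′ to 3′ along the transcript. The exon is in capitals, and the lower case letters are the 15 nt of the transcript on either side, from the neighbouring exons.
Ppp3ca 30-nt exon: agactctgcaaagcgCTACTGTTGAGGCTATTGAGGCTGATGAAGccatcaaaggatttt
Ppp3cb 30-nt exon: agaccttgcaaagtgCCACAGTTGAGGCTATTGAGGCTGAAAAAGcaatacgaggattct
Camk2g 33-nt exon: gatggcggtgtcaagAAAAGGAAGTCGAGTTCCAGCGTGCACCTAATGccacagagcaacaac
Camk2g 69-nt exon: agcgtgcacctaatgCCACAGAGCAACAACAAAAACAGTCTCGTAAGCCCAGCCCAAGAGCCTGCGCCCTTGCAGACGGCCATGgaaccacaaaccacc
Camk2d 60-nt exon: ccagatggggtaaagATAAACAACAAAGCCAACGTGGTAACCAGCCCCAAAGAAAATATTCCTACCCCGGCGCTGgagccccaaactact
Camk2d 42-nt exon: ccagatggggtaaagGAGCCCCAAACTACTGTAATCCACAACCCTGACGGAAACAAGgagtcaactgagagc

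The first question was how much of each effector family mNRPCs and retina expressed. The 4 CaMKII genes together came to 41.2 FPKM in mNRPCs and 158 FPKM in retina, a 3.83-fold lower level in mNRPCs (log2 ratio -1.91, SE 0.05). The calcineurin catalytic subunits came to 88.6 FPKM in mNRPCs and 96.7 FPKM in retina (log2 ratio -0.12, SE 0.04). The NFAT genes came to 3.94 and 4.35 FPKM (log2 ratio -0.12, SE 0.15). The median log2 ratio of the 13780 genes compared, those that reached 1 FPKM in either library, was also -0.12. Relative to that median the CaMKII sum was at -1.79 on the log2 scale, and the calcineurin and NFAT sums lay at it. Within a library, the calcineurin sum was 2.15 times the CaMKII sum in mNRPCs and 0.612 times in retina, a ratio that library scaling cannot move. It did depend on the rows counted, since curated rows alone, an alternative chosen after seeing the data, gave 3.59 in mNRPCs and 1.24 in retina, which turns the order of the sums in retina. The calcineurin sum was 22.5 times the NFAT sum in mNRPCs and 22.2 times in retina.

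Of the 10 genes, 8 were compared, and Nfatc1 and Nfatc2 stayed under 1 FPKM in both libraries. The 4 CaMKII genes were at least 2-fold lower in mNRPCs, none of the 8 was at least 2-fold higher, and the other 4 lay between. Among all compared genes, 30% were at least 2-fold lower in mNRPCs and 24.5% at least 2-fold higher, or 54.4% in either direction. Without the filter on low values these shares were 13.2% and 10.8%, and among genes of at least 5 FPKM they were 25.9% and 26.9%.

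**Figure D1:**
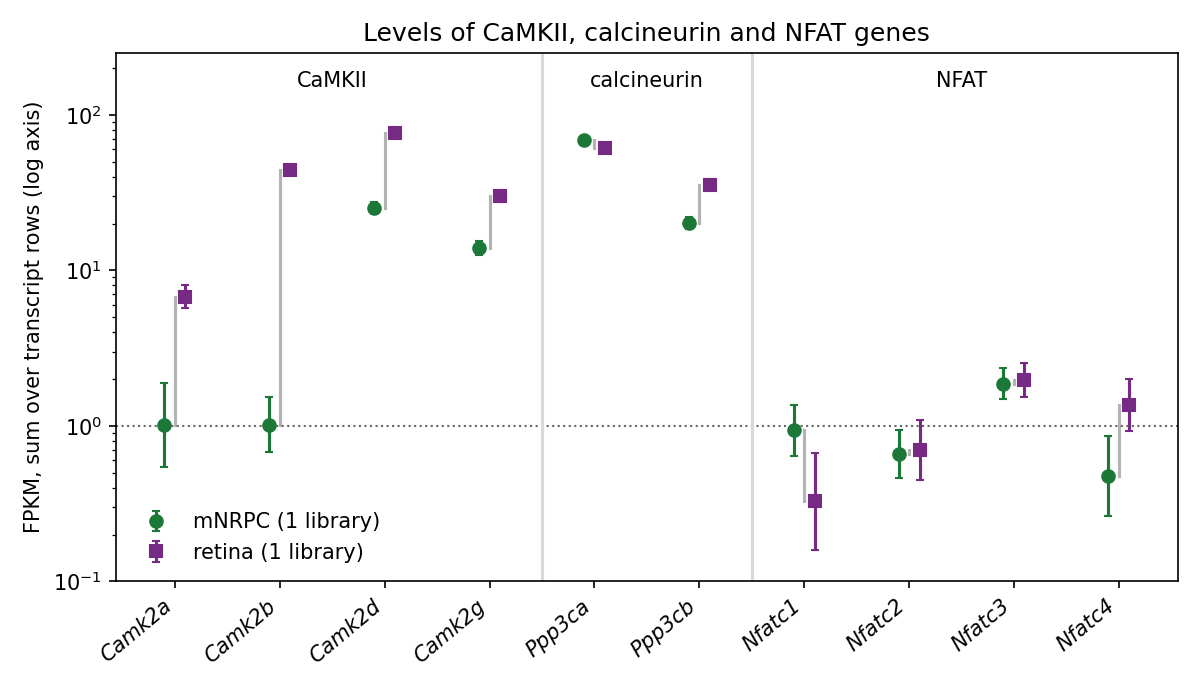
FPKM of the 10 genes on a log axis, summed over transcript rows, with 1 point per library (circles, mNRPC; squares, retina) and 95% counting intervals; grey lines join the libraries and the dotted line marks 1 FPKM. The retina squares lie above the mNRPC circles for all 4 CaMKII genes, most for Camk2b (44.3 against 1.02 FPKM), while Ppp3ca and Nfatc3 lie close together.

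Camk2b, which encodes the CaMKII beta subunit that also binds actin, was at 1.02 FPKM in mNRPCs and 44.3 FPKM in retina (log2 ratio -4.49, SE 0.16). Its mNRPC level was 2.30% of its retina level, and 23.0 estimated fragments lay behind it. Camk2a, for the alpha subunit of neuronal synapses, was at 1.01 FPKM in mNRPCs and 6.78 FPKM in retina (log2 ratio -1.95, SE 0.25). Both genes of the neuronal subunits were thus near 1 FPKM in mNRPCs, where their counting intervals overlapped. Camk2d, for the delta subunit, was at 25.3 FPKM in mNRPCs and 77.0 FPKM in retina, a 3.05-fold lower level (log2 ratio -1.57, SE 0.07). Camk2g, for the gamma subunit, was at 13.9 FPKM in mNRPCs and 30 FPKM in retina, a 2.15-fold lower level (log2 ratio -1.05, SE 0.10). With curated rows only, Camk2g was at a log2 ratio of -0.08, so its 2-fold difference rested on predicted rows. On curated rows Camk2d was at -2.07, a larger difference, and Camk2b at -3.71, a smaller one. The curated rows of Camk2a came to 0.989 FPKM in mNRPCs and 2.48 FPKM in retina, a log2 ratio of -0.81 that the pseudocount kept under 2-fold.

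Markers of many retinal cell types were lower in mNRPCs beside the CaMKII genes. All 5 of the neuronal list (Snap25, Syt1, Rbfox3, Tubb3 and Map2) were lower in mNRPCs, with a summed level of 21.5 FPKM against 1054 FPKM in retina, and the neuronal nuclear gene Rbfox3 was listed at 0 in mNRPCs. Lower as well were all 4 bipolar, all 4 ganglion and 3 of 4 amacrine genes, and among non-neuronal lists all 4 Mueller genes (31.6 against 1171 FPKM in sum), the 3 compared pigment epithelium genes, the 3 compared endothelial genes and the 2 compared immune genes. Of the fibroblast list, 3 genes were compared, of which Col3a1 was higher in mNRPCs (450 against 0.311 FPKM) while Col1a1 was at 1.35 and 0.552 FPKM and Pdgfra at 1.76 and 1.23 FPKM. The part of cell type content in the CaMKII difference was not tested.

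Composition within the CaMKII family differed as well. Camk2d was the leading gene in both libraries, with 61.3% of the family sum in mNRPCs (95% interval 58.1 to 64.4) and 48.7% in retina (46.9 to 50.5). Camk2g followed in mNRPCs with 33.8% (30.8 to 36.8), against 19.0% in retina (17.5 to 20.4). Camk2b was second in retina with 28% (26.4 to 29.6) and made up 2.47% in mNRPCs (1.47 to 3.47), a difference of -25.5 percentage points (-27.4 to -23.7). Camk2a made up 2.45% in mNRPCs and 4.29% in retina, an order that turned with curated rows alone (4.99% and 3.94%). The share of Camk2d was thus 12.6 points higher in mNRPCs and that of Camk2g 14.8 points higher, and Camk2d exceeded Camk2b 24.8-fold in mNRPCs and 1.74-fold in retina. The order in retina held for the sum of rows, since the highest row of each gene alone gave Camk2b 37.8% and Camk2d 34.5% there. The order of Camk2d and Camk2g in mNRPCs rested on predicted rows, since curated rows alone gave Camk2g 58.3% and Camk2d 35.4% there. In retina, curated rows alone gave Camk2d 52.0% and Camk2g 19.6%. On curated rows the Camk2d share was thus lower in mNRPCs than in retina, while that of Camk2g stayed higher.

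**Figure D2:**
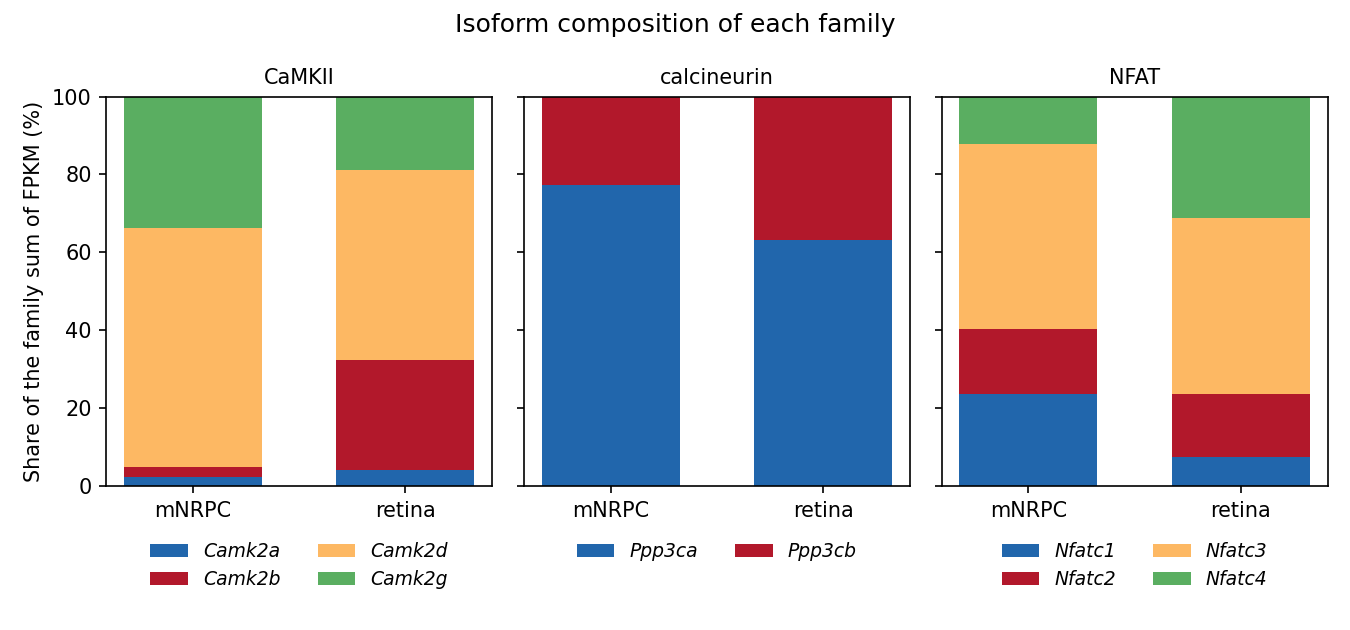
Share of each gene in the summed FPKM of its family (percent, stacked to 100) in the mNRPC library and the retina library. Camk2b takes 2.47% of CaMKII in mNRPCs and 28% in retina, Ppp3ca 77.4% and 63.1% of calcineurin, and Nfatc4 12.1% and 31.2% of NFAT.

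Transcript rows within the CaMKII genes were divided by the upstream program from shared reads, so a row is less certain than its gene. In Camk2g, NM_001039139.2, which has neither the 33-nt nor the 69-nt linker exon shown above, was at 7.86 FPKM in mNRPCs and 7.49 FPKM in retina, or 56.4% and 25.0% of the gene. NM_001039138.2, with the 69-nt exon alone, was at 3.42 and 3.11 FPKM. NM_178597.5, with both exons, was at 0.279 FPKM in mNRPCs (6.76 estimated fragments) and 1.72 FPKM in retina (31.9 fragments). The shortest linker thus led among the curated Camk2g rows of both libraries, and the row with the nuclear localization exon took 2.0% of the gene in mNRPCs and 5.73% in retina. Predicted rows, whose exons were not analysed here, took 17.0% of Camk2g in mNRPCs and 58.9% in retina.

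In Camk2d, the curated rows with the 60-nt linker exon came to 3.89 FPKM in retina and 0.000503 FPKM in mNRPCs. These rows also carry the 42-nt exon, and NM_001293664.1, with the 42-nt exon but not the 60-nt one, was at 0.405 FPKM in retina and 0.00299 FPKM in mNRPCs. Both exons were under the limit of 3 estimated fragments in mNRPCs and so not detectable on curated rows at this depth. NM_023813.4, with neither exon, was at 5.63 FPKM in mNRPCs and 14.7 FPKM in retina, 22.3% and 19.0% of the gene. NM_001293666.1, whose coding region of 1083 nt is the shortest of the curated Camk2d rows, was at 10.1 FPKM in retina and 0.0250 FPKM in mNRPCs, below the same limit. Predicted rows held 72.2% of Camk2d in mNRPCs and 57.5% in retina. Those leading in mNRPCs were XM_006500826.2 (10.5 and 5.47 FPKM) and XM_006500832.2 (4.22 and 14.7 FPKM). In retina XM_006500832.2 led the predicted rows, followed by XM_006500836.2 at 7.77 FPKM, which was at 0.296 FPKM in mNRPCs.

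The leading Camk2a row of retina was the predicted XM_006525541.2, whose exons were not analysed here, at 4.30 FPKM or 63.4% of the gene, against 0.0221 FPKM in mNRPCs. The curated rows are a full kinase of 1434 coding nt and short forms of 567 and 600 coding nt that share its stop codon, start downstream and lack the kinase part. The short forms held 95.1% of Camk2a in mNRPCs (0.961 FPKM, 8.67 fragments) and 4.86% in retina (0.329 FPKM, 2.30 fragments). The full kinase row NM_177407.4 was at 2.15 FPKM in retina (53.5 fragments) and 0.0276 FPKM in mNRPCs (0.897 fragments). The Camk2a gene level of 1.01 FPKM in mNRPCs was therefore nearly all outside the full kinase row. For Camk2b, the leading rows of retina were XM_006514475.1 at 16.1 FPKM and NM_007595.5 at 14.8 FPKM, and in mNRPCs these stood at 0.0119 and 0.00893 FPKM.

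The inhibitors of CaMKII, which bind the active kinase, were lower in mNRPCs too. Camk2n1 was at 7.38 FPKM in mNRPCs and 46.8 FPKM in retina (log2 ratio -2.51, SE 0.10). Camk2n2 was at 0.393 FPKM in mNRPCs, resting on 3.31 estimated fragments, and 30.1 FPKM in retina (log2 ratio -4.48, SE 0.24). Their sum was 0.189 times the CaMKII sum in mNRPCs and 0.486 times in retina.

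Other calmodulin-dependent kinases did not share a direction. Of 6 genes, 2 were at least 2-fold higher in mNRPCs, 2 at least 2-fold lower and 2 between, with a median log2 ratio of -0.81. Camk1 was at 38.3 FPKM in mNRPCs and 10.6 FPKM in retina (log2 ratio 1.76, SE 0.16), and Camk1g at 12.3 and 5.29 FPKM (1.08, SE 0.18). Camk4, a nuclear kinase of neurons and T cells, was at 1.87 FPKM in retina and below the limit of 3 fragments in mNRPCs, at least 11.1-fold lower. Camkk1, which activates Camk1 and Camk4, was at 2.47 and 11.1 FPKM (log2 ratio -1.80, SE 0.17). Camk1 thus exceeded Camk2d in mNRPCs, where Camk2d stood at 25.3 FPKM.

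Ppp3ca, the alpha catalytic subunit of calcineurin, was the highest of the 10 genes in mNRPCs, at 68.5 FPKM against 61 FPKM in retina (log2 ratio 0.16, SE 0.05). Its sign depended on scaling, with a log2 ratio of -0.34 when each library was rescaled to the same sum. Relative to the median of all compared genes it was 0.28 higher as deposited and 0.34 higher after rescaling. Ppp3cb, the beta catalytic subunit, was at 20.1 FPKM in mNRPCs and 35.6 FPKM in retina (log2 ratio -0.80, SE 0.08). Ppp3ca made up 77.4% of their sum in mNRPCs (95% interval 75.7 to 79.1) and 63.1% in retina (60.9 to 65.4), so that it exceeded Ppp3cb 3.42-fold and 1.71-fold. The share of Ppp3ca was 14.2 points higher in mNRPCs (11.4 to 17.1), beyond the counting error. Curated rows alone gave Ppp3ca 96.4% in mNRPCs and 78.4% in retina, and Ppp3cb 3.64% and 21.6%, so the direction held while both folds over Ppp3cb were larger.

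The 2 Ppp3ca rows code for proteins that differ by the 30-nt exon printed above, with coding regions of 1533 and 1563 nt. NM_001293622.1, without the exon, was at 67.9 FPKM in mNRPCs and 23.7 FPKM in retina. NM_008913.5, with the exon, was at 0.598 FPKM in mNRPCs (8.58 estimated fragments) and 37.3 FPKM in retina (410 fragments). The row without the exon thus took 99.1% of Ppp3ca in mNRPCs and 38.8% in retina, although the gene levels were close. The GENCODE transcripts matched to the rows also differ in total length, 4758 nt without and 2194 nt with the exon. Lengths of the RefSeq sequences themselves were not read, and how far the exon alone set the split of reads was not tested.

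For Ppp3cb, the matching 30-nt exon is identical to that of Ppp3ca at 26 of 30 positions. NM_008914.2, which has it, was at 2.59 FPKM in mNRPCs and 16.8 FPKM in retina, or 12.9% and 47.0% of the gene. The predicted row XM_006518711.1 held 17.5 FPKM in mNRPCs and 2.47 FPKM in retina, and the predicted row XM_006518707.1 was at 0.000335 FPKM in mNRPCs and 16.3 FPKM in retina. The exons of the predicted Ppp3cb rows, which held 87.1% of the gene in mNRPCs and 53.0% in retina, were not analysed here. No curated Ppp3cb row lacks the exon, so its use in this gene could not be read from these shares. With curated rows alone, Ppp3cb was at a log2 ratio of -2.31.

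**Figure D3:**
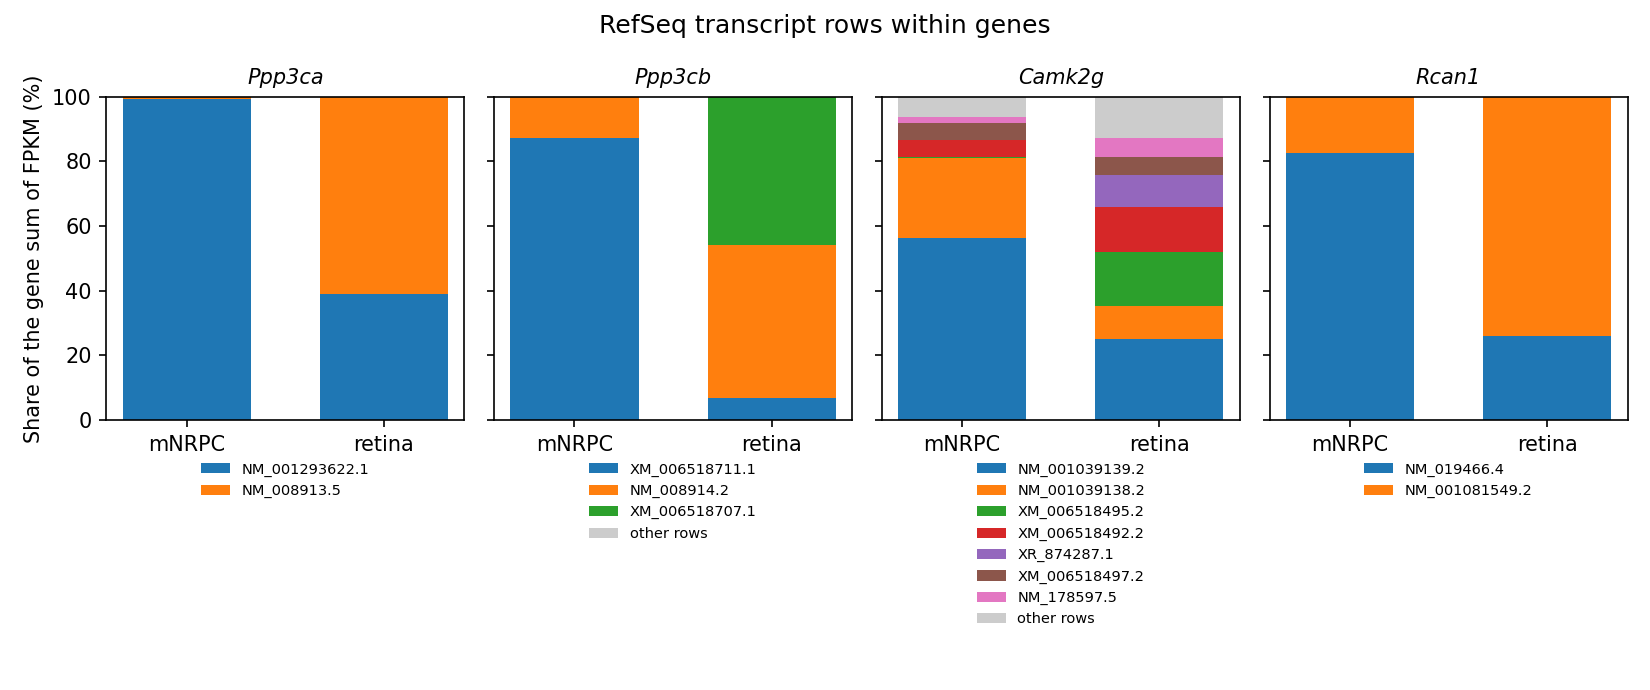
Share of each RefSeq transcript row in the summed FPKM of Ppp3ca, Ppp3cb, Camk2g and Rcan1 (percent, stacked to 100) in the mNRPC and retina libraries; small rows are pooled as other rows. NM_001293622.1 takes 99.1% of Ppp3ca in mNRPCs and 38.8% in retina, and NM_019466.4 takes 82.5% and 25.9% of Rcan1.

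Of the other calcineurin subunits, Ppp3cc, the gamma catalytic subunit, was at 6.82 FPKM in mNRPCs and 10.2 FPKM in retina (log2 ratio -0.52, SE 0.19). Ppp3r1, the calcium-binding B subunit, was at 69.9 and 116 FPKM (-0.72, SE 0.05), 1.02 times the level of Ppp3ca in mNRPCs and 1.90 times in retina. Ppp3r2, a B subunit of testis, was listed at 0 in mNRPCs and at 0.0563 FPKM in retina. No other subunit reached a 2-fold difference.

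Among 8 regulators and partners of calcineurin, 3 were at least 2-fold higher in mNRPCs and 3 at least 2-fold lower, with a median log2 ratio of -0.53. The lower ones were the 3 genes of the RCAN family, which bind and restrain calcineurin. Rcan1 was at 5.79 FPKM in mNRPCs and 15.9 FPKM in retina (log2 ratio -1.31, SE 0.17), Rcan2 at 2.14 and 26.7 FPKM (-3.14, SE 0.19), and Rcan3 at 4.78 and 25.1 FPKM (-2.18, SE 0.11). The higher ones were Chp1, a calcineurin B homologue (68.1 and 27.5 FPKM), and Fkbp1a and Ppia, whose proteins bind the calcineurin-blocking drugs tacrolimus and cyclosporin (178 and 75.6 FPKM, 3638 and 1047 FPKM). Ppia has many near-identical copies in the genome, so its level is uncertain.

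Rcan1 has alternative first exons, of which the downstream one is known to be transcribed in response to calcineurin and NFAT. The row with the downstream start, NM_019466.4, was at 4.78 FPKM in mNRPCs (68.4 fragments) and 4.11 FPKM in retina (45.1 fragments). The row with the upstream start, NM_001081549.2, was at 1.01 FPKM in mNRPCs (15.4 fragments) and 11.8 FPKM in retina (137 fragments). The lower Rcan1 sum of mNRPCs was thus on the upstream row, and the downstream row took 82.5% of the gene in mNRPCs and 25.9% in retina.

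The NFAT genes were low in both libraries. Nfatc3 was the highest, at 1.87 FPKM in mNRPCs and 1.97 FPKM in retina (log2 ratio -0.05, SE 0.17), and lay at the percentiles 25.2 and 17.3 of the compared genes. Nfatc1, known from lymphocytes and heart valve development, was at 0.934 FPKM in mNRPCs (27.6 fragments) and 0.327 FPKM in retina (7.42 fragments), with a log2 ratio of 0.54 (SE 0.19). Nfatc2 was at 0.66 and 0.70 FPKM (-0.03, SE 0.17). Nfatc4, the NFAT gene best known from neurons, was at 0.477 FPKM in mNRPCs (11.1 fragments) and 1.36 FPKM in retina (25.6 fragments), with a log2 ratio of -0.67 (SE 0.22). With a pseudocount of 0.1 the log2 ratio was 1.28 for Nfatc1 and -1.33 for Nfatc4, both then past 2-fold. Counting intervals of neighbours in the order of NFAT levels overlapped in each library, except those of Nfatc3 and Nfatc1 in mNRPCs.

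Within the NFAT sum, Nfatc3 made up 47.4% in mNRPCs and 45.2% in retina, a difference of 2.22 points with a 95% interval from -10.3 to 14.7. Nfatc2 made up 16.7% and 16.1%, a difference of 0.648 points (-8.03 to 9.33). Nfatc1 made up 23.7% in mNRPCs (16.2 to 31.3) and 7.51% in retina (2.33 to 12.7), 16.2 points more (7.04 to 25.4). Nfatc4 made up 12.1% in mNRPCs (5.58 to 18.7) and 31.2% in retina (21.7 to 40.7), a difference of -19.1 points (-30.6 to -7.55). The similar NFAT sums thus held more Nfatc1 and less Nfatc4 in mNRPCs, beyond the counting error of these libraries.

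Rows of the NFAT genes rested on few fragments. Nfatc1 rows ending in the short carboxyl terminus, of 2109 and 2151 coding nt, held 67.9% of the gene in mNRPCs and 100% in retina, with 7.42 fragments in the latter. In Nfatc2, rows with the 2769-nt coding region held 33.6% of the gene in retina (8.06 fragments), where rows with the 2781-nt coding region held 41.1% (9.58 fragments). In mNRPCs the 2769-nt rows carried 29.4 fragments and the 2781-nt rows were below the limit of 3. Nfatc4 row NM_001168346.1 held 54.8% of its gene in mNRPCs and 96.7% in retina. Nfatc3 had 1 curated row, with 96.6% and 97.9% of the gene.

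Nfat5, the relative of the family that responds to osmotic stress and is not controlled by calcineurin, was higher than any NFAT gene in both libraries, at 12.0 FPKM in mNRPCs and 20.4 FPKM in retina (log2 ratio -0.72, SE 0.06). It stood 6.45 times above Nfatc3 in mNRPCs and 10.4 times in retina. Kinases that phosphorylate NFAT and send it out of the nucleus mostly differed by less than 2-fold, with 1 of 7 at least 2-fold higher in mNRPCs, none at least 2-fold lower and a median log2 ratio of -0.08. The higher one was Csnk1a1, casein kinase 1 alpha, at 95 and 38.7 FPKM (log2 ratio 1.27, SE 0.06). The glycogen synthase kinase 3 genes, whose products CHIR99021 inhibits, were at 59.4 and 62.9 FPKM for Gsk3a and at 9.71 and 17.6 FPKM for Gsk3b.

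Upstream, 20 genes of calcium release, entry and removal were examined, of which 17 were compared. In mNRPCs 6 were at least 2-fold higher and 4 at least 2-fold lower, with a median log2 ratio of 0.03. The highest ratio was that of Itpr3, an inositol trisphosphate receptor of the endoplasmic reticulum, at 30.7 FPKM in mNRPCs and 0.714 FPKM in retina (log2 ratio 4.21, SE 0.11). Itpr2 was at 5.07 and 1.56 FPKM (1.25, SE 0.12), whereas Itpr1 was at 4.04 and 3.93 FPKM. The store-operated channel genes Orai1 (12.3 and 3.25 FPKM) and Orai3 (15.5 and 2.87 FPKM) and the phospholipase C genes Plcb3 (11.1 and 2.38 FPKM) and Plcg1 (17.8 and 8.03 FPKM) were the others on the higher side. The lower genes included the ryanodine receptor genes Ryr2, listed at 0 in mNRPCs and at 6.08 FPKM in retina, and Ryr3, at least 79.9-fold lower. They also included Atp2b2, a calcium pump of the plasma membrane, at least 232-fold lower, and Plcb4, a phospholipase C gene of neurons (0.355 and 10.3 FPKM). Among the calcium release channels, the inositol trisphosphate receptor genes thus exceeded the ryanodine receptor genes in mNRPCs, where Ryr1, Ryr2 and Ryr3 were each at or below the limit of 3 fragments.

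**Figure D4:**
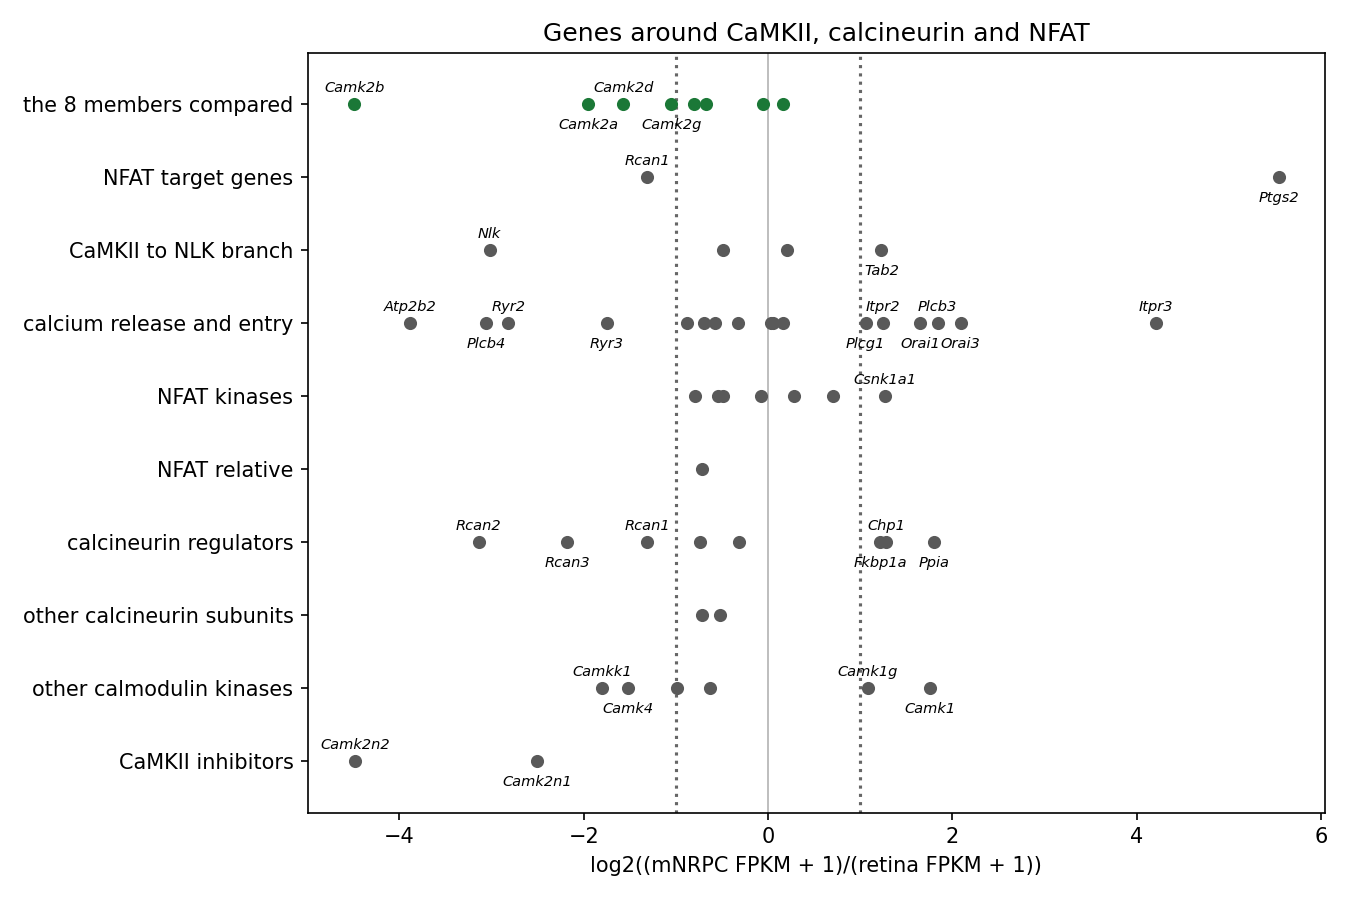
Log2 ratio of mNRPC FPKM + 1 to retina FPKM + 1 for the compared genes of each pathway list described, 1 point per gene, with positive values higher in mNRPCs; dotted lines mark a 2-fold difference, and genes past it are named. The CaMKII genes and both CaMKII inhibitors lie left of the lower line, NFAT kinases gather around 0, and Itpr3 (4.21) and Ptgs2 (5.54) lie far to the right.

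A further branch runs from CaMKII through the kinase TAK1 to NLK, which acts on the transcription factors of canonical Wnt signalling. Of its 4 genes, Nlk was lower in mNRPCs, at 6.05 against 56.1 FPKM (log2 ratio -3.02, SE 0.10), and Tab2, an adaptor of TAK1, was higher, at 49.6 against 20.5 FPKM (1.23, SE 0.07). Map3k7, the TAK1 gene, was at 17.2 and 14.7 FPKM.

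Of 8 genes known as NFAT targets in other tissues, 6 were under 1 FPKM in both libraries, among them Il2 and Il4, which were listed at 0 in both. The compared ones were Rcan1, described above, and Ptgs2, the inducible cyclooxygenase. Ptgs2 was at 59.4 FPKM in mNRPCs and 0.302 FPKM in retina, with 1728 and 6.74 estimated fragments (log2 ratio 5.54, SE 0.13). Ptgs2 responds to many other signals, and the part of NFAT in its level was not tested.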

How the data were processed

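RNA from 1 mNRPC culture and 1 retina sample was sequenced, with groups taken from the labels. The deposited values were FPKM per RefSeq transcript, for which the authors describe alignment with Bowtie 2 and estimation with eXpress. The submitters' processing notes name TopHat2 2.0.10 and GRCm38.p3 instead. The annotation release and strandedness were not given in the sources used here.

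Of 106754 rows, 74283 (69.6%) were matched to a gene symbol through RefSeq (GRCm38.p6) and GENCODE M21, and summed to 31253 genes with python 3.11.15 and pandas 2.3.3. Values under 1e-06 FPKM were read as 0. A log2 ratio used a pseudocount of 1, genes with at least 1 FPKM in a library were compared, and a log2 ratio of at least 1 in size counted as 2-fold. Fragments were estimated from the steps of low values on single-row genes with a length of at least 1500 bp (692 rows in mNRPC, 685 in retina), and folds against a library at or under 3 fragments are lower bounds. Because the division of reads among rows is not part of these errors, intervals on rows and shares are too narrow by an unknown amount. Exons were read from curated rows only. The depth estimate and the log2 ratio were tested on simulated fragments of single-row genes. That test did not cover sums over rows, the division of reads among rows or family shares.

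Named genes were the 10 members and fixed pathway and marker lists. Some pathway genes are not reported here. Members and lists were chosen with earlier results of these data known. The results and the closing section give the pseudocount, scaling, row, filter and threshold alternatives.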

Additional observations from a re-analysis of the deposited data

How the results depend on the processing

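The direction of the CaMKII sum was the same under all alternatives run. Its log2 ratio of -1.91 was -2.43 with each library rescaled to a sum of 1e+06, -2.04 with upper quartile scaling and -1.62 with curated rows only. The calcineurin sum (-0.12) was -0.64 and -0.25 under the first 2 of these, and the NFAT sum (-0.12) was -0.58 under the first and -0.60 with Nfat5 added. Rescaling to the same sum moved the median of all compared genes from -0.12 to -0.68 and the share of genes at least 2-fold lower from 30% to 42.4%, with 18.4% higher. Relative to that median, the sums were at -1.75 for CaMKII, 0.05 for calcineurin and 0.10 for NFAT. At a log2 threshold of 2, only Camk2b remained of the 4 lower members, a count of 1. Rescaling added Ppp3cb (-1.32) and Nfatc4 (-1.22), giving 6. With curated rows, 3 were lower (Camk2b, Camk2d and Ppp3cb). With a pseudocount of 0.1, 5 were lower, Nfatc4 being the one added. With the highest row of each gene only, Camk2d made up 54.7% and Camk2g 40.9% of CaMKII in mNRPCs, and Ppp3ca 79.6% of calcineurin there and 69% in retina. The causes were not tested. No paired analysis was possible because only a single library stood for each group, and none could be left out. Depth limited the NFAT genes, and Camk2a and Camk2b in mNRPCs.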
